A study of Mus musculus with 12 samples.

Results

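The control pull-down of a RIP-seq experiment in mouse zygotes is described here, as 2 control IP libraries against the 2 control Input libraries made with them. These 4 libraries of the 12 in the series were chosen by title, and no measured value entered the choice. RIP-seq is RNA immunoprecipitation followed by sequencing. The zygotes were of the B6D2F1 strain, from superovulated and mated females aged 8 to 10 weeks, and were collected 18 to 20 h after hCG and then microinjected. For the control, the treatment field names Lsm1 mRNA without a tag, while the library titles name IgG. The control IP was taken with the same ANTI-FLAG M2 Affinity Gel that served the zygotes given Lsm1_3XFlag mRNA, so that no protein carrying the FLAG peptide was supplied by injection. The Input was a portion of the lysate kept before the beads were added, with no antibody. Zygotes were pooled for each reaction, and the figure legends of the paper call the replicates biologically independent, while the labels do not name separate cultures.

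The question put to these libraries was which RNAs FLAG beads recover in zygotes that hold no FLAG-tagged protein. Such RNA is the background that any RIP-seq signal is read against, and it can come from RNA or RNA-protein particles that adhere to agarose, to the antibody or to plastic. Small nucleolar RNAs (snoRNAs) are short, stable RNAs that sit in protein particles in the nucleolus. Box C/D snoRNAs (Snord genes) guide methylation of ribosomal RNA and box H/ACA snoRNAs (Snora genes) guide its pseudouridylation, and most are cut from introns of a host gene. LINE1 elements and endogenous retroviruses (ERVs) are retrotransposons, some of which are transcribed in the early mouse embryo, and satellites are tandem repeats of the regions around centromeres.

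Of the RNA classes in the files, snoRNAs had the highest median ratio of IP over Input. A pair of box C/D snoRNAs is shown because they combine high levels in the IP with the sequence elements of their family, whose C box (TGATGA) and D box (CTGA) are in capitals. A pair of box H/ACA snoRNAs is shown with the terminal ACA in capitals. The minor spliceosomal RNA Rnu11 is given without capitals, as an RNA of similar length from outside the snoRNA class that also gave a high ratio. All sequences are from RefSeq on GRCm38.p6, written 5′ to 3′ on the strand of the RNA. Snord87 lies at chr1:9942470-9942543 (minus strand), Snord33 at chr7:45126864-45126945 (minus), Snora47 at chr13:95330611-95330736 (plus), Snora64 at chr17:24720789-24720905 (plus) and Rnu11 at chr4:132270079-132270186 (minus).
Snord87: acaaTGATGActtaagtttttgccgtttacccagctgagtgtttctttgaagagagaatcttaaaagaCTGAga
Snord33: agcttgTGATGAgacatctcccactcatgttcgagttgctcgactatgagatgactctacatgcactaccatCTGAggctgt
Snora47: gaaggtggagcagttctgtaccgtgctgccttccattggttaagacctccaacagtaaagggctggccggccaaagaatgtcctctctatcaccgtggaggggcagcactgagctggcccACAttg
Snora64: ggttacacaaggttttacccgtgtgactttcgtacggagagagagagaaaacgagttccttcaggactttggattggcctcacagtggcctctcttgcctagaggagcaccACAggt
Rnu11: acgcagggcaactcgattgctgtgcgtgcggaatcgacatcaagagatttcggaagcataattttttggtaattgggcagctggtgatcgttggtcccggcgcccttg

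TGATGA followed by CTGA was present in 26 of the 73 Snord genes in the files (35.6%) and in no Snora gene. ACA at 3 bases from the 3′ end was present in 25 of the 36 Snora genes (69.4%) and in 1 Snord gene. On the reverse strand the same searches matched none of the Snord genes and 2.78% of the Snora genes. Over all 120 snoRNAs, 28.3% held the first and 22.5% the second.

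The control Input libraries held 31586450 and 25612092 estimated counts and the control IP libraries 11400686 and 18969763. A floor of 3 counts in 1 library corresponded to between 0.0950 and 0.263 CPM, the counts scaled to the depth of a library, and such floors and intervals cover counting error only. Mean fragment lengths were 193 to 215 nt. Of the genes and repeats, 12196 and 11987 reached 1 CPM in the Input and 15162 and 14221 in the IP, although the IP libraries were the shallower ones. Log2 CPM correlated at 0.997 between the Input libraries and 0.978 between the IP libraries, and IP with Input at 0.960 to 0.978. Lsm1, the RNA that their treatment field says was injected, showed no excess. The 4 control libraries held 16.1 to 24.6 CPM of it and the FLAG Input libraries 9931 and 14731 CPM. The 27 oocyte and zygote markers took 17528 and 15486 CPM of the Input and 11642 and 11575 CPM of the IP. The 20 markers of cumulus and granulosa cells took 313 and 335 CPM of the Input and 257 and 280 CPM of the IP (Inha at 0 in all 4 libraries), and the 20 of sperm 353 and 412 CPM against 209 and 239 CPM (Prm1 at 0). The 10 blood markers summed to at most 8.16 CPM, with Hbb-bs and Hba-a2 among those at 0.

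Estimated counts were summed by gene, repeats kept as features of their own, and the IP was compared with the Input by the quasi-likelihood test of edgeR. The log2 ratio is the fitted log2 fold of IP over Input, and a feature was called at an adjusted p under 0.05 and a log2 ratio above 1 or below -1. Of 25092 genes and repeats, 15740 passed the filter on low counts and were tested. Of these, 2119 (13.5%) were called higher in the IP and 38 (0.241%) lower. By the adjusted p alone 2227 (14.1%) were higher and 491 (3.12%) lower, and the median log2 ratio over all tested features was 0.037. Each of the 2119 had both IP libraries above both Input libraries, an order found in 34.6% of all tested features, and 69 of them had 0 counts in both Input libraries. A feature rare in the Input could pass the filter through the IP alone. Among the 13539 tested features with at least 10 counts in each Input library, 913 were called higher and 38 lower.

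The number of calls differed between fits. It was 574 higher and 32 lower without Input replicate 2, 808 and 37 without Input replicate 1, 2978 and 273 without IP replicate 1 and 3907 and 614 without IP replicate 2. With the spread estimated over all 8 RIP-seq libraries, 403 were higher and 1 lower, and when transcripts were tested singly, 3 and 0. With IP and Input of the same lysate as a block, 2587 were higher and 72 lower. Of all calls, 98.2% were higher in the IP by counts, while limma on TPM (a library's transcript shares after division by length) gave 717 higher and 1349 lower, with a median over all tested features of -0.58. A ratio here is a share of a library, and it does not tell how much RNA the beads held.

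Among the RNA classes, snoRNAs had the highest median ratio in the control. Their summed share of the counts, which no filter touches, was 0.0330% and 0.0199% in the Input and 0.615% and 0.647% in the IP. The IP share was 0.631% ± 0.0229 (SD, n = 2) against 0.0264% ± 0.00927 (SD, n = 2), a 23.9-fold difference with no overlap. The exact two-sided permutation test gave p = 0.333, the smallest that 2 against 2 can give. In TPM, snoRNAs took 1.70% and 1.14% of the Input libraries and 21.6% and 23.1% of the IP libraries. By summed counts the satellite class, of 7 features, had a larger ratio of 40.6. It was 52.5 in replicate 1 and 22.8 in replicate 2, against 18.6 and 32.6 for snoRNAs.

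Of the 120 snoRNAs in the files 98 were tested, and 97 of these were called higher and none lower. Gm26504, Snord116l1 and Snord116l2 are counted separately here and among the host pairs below. They had nearly the same values in each library and can share reads, so that they are not separate observations. The median log2 ratio over the tested snoRNAs was 4.52 (22.9-fold), with values from 2.17 to 7.33, and the median was 3.68 in replicate 1 and 4.52 in replicate 2. Of the 55 snoRNAs with at least 10 counts in each Input library, all 55 were called higher. By family, 59 of 60 Snord genes (median 4.55) and 33 of 33 Snora genes (median 4.44) were called higher. The snoRNA that was not called, Snord71, stood at 0.457 and 0.164 CPM in the Input and 1.55 and 1.47 CPM in the IP, with a log2 ratio of 2.23 and an adjusted p of 0.073. The median over snoRNAs was between 4.03 and 5.02 under the alternatives it was computed for.

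**Figure D1:**
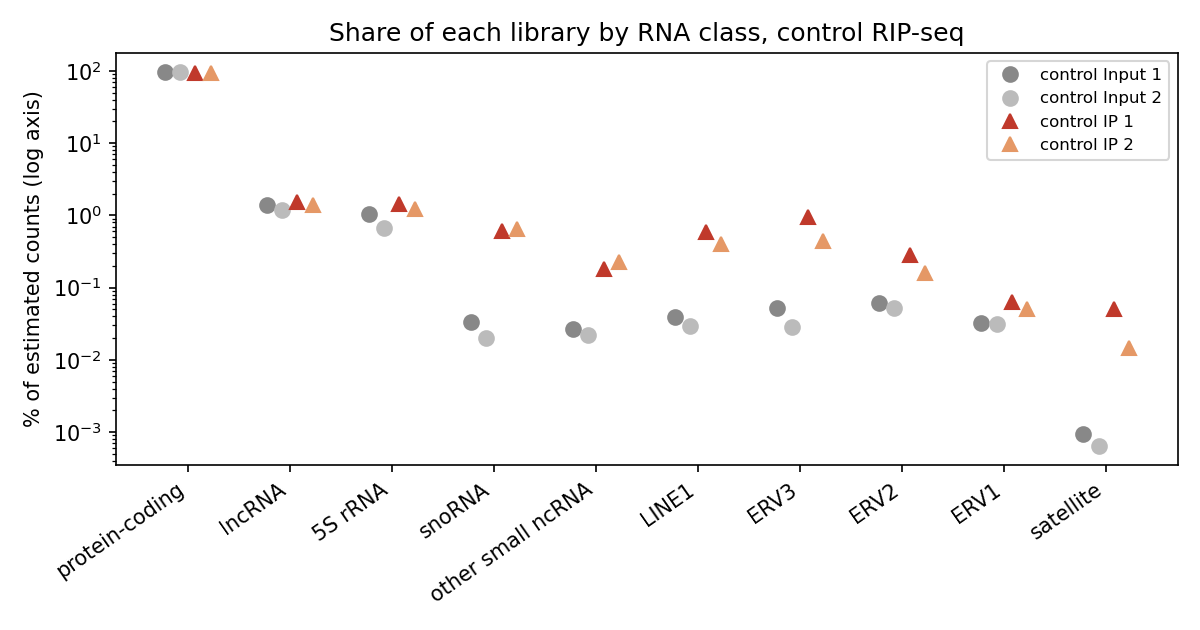
Share of the estimated counts taken by each RNA class in the 4 control libraries, in percent on a log axis, with circles for Input and triangles for IP. Protein-coding genes lie between 93.5% and 97.3% in every library, while snoRNAs lie at 0.0330% and 0.0199% in the Input and 0.615% and 0.647% in the IP.

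Snora47, the box H/ACA snoRNA printed above, had the most IP counts of its class. It was at 59.9 and 44.3 CPM in the Input and 1308 and 1392 CPM in the IP, with a log2 ratio of 4.69 (SE 0.21, adjusted p = 2.7e-05). The IP libraries lay close together and far above both Inputs. Snord87 was at 14.8 and 7.76 CPM in the Input and 323 and 276 CPM in the IP (log2 ratio 4.72, SE 0.30). Snord33 was at 10.0 and 5.01 CPM against 247 and 183 CPM (4.82, SE 0.33). Snora64 was at 12.3 and 8.95 CPM against 236 and 198 CPM (4.35, SE 0.21). The 4 printed snoRNAs were chosen with their values known, and over the class the log2 ratios ran from 2.17 to 7.33. These 4 were past the adjusted p of 0.05 under every alternative fit of genes.

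Small Cajal body RNAs (Scarna genes), which guide the modification of spliceosomal RNA, were called in 9 of 9 cases, with a median of 3.65. Scarna6, of 248 nt, was at 8.72 and 10.3 CPM in the Input and 276 and 279 CPM in the IP (4.87, SE 0.17). Scarna13, of 275 nt, was at 27.2 and 24.1 CPM against 362 and 309 CPM (3.71, SE 0.17). Snord118, which carries the snoRNA name U8 and acts in the processing of ribosomal RNA, was at 6.14 and 3.16 CPM against 24.9 and 82.7 CPM (3.53, adjusted p = 0.0079, lost with all 8 libraries), with its IP libraries further apart.

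The host genes gave lower ratios than their snoRNAs in most pairs. Of the 98 tested snoRNAs, 94 lay within a tested host gene, and 93 of these were called, with a median log2 ratio of 4.53. Their 69 hosts had a median of 0.40, with 17 called higher. The snoRNA had the higher ratio in 90 of the 94 pairs. Features were spliced transcripts, and introns were not quantified.

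Zbed3, the host of Snora47, showed the widest contrast among the named pairs. Its mRNA was at 15406 and 14198 CPM in the Input and 8995 and 10245 CPM in the IP, a log2 ratio of -0.62 (adjusted p = 0.062, and 0.034 with the lysate as a block). Both IP values of the mRNA lay below, and both of its intronic snoRNA above, those of the Input. Rpl13a, a ribosomal protein gene and host of Snord33, was at 73.3 and 81.0 CPM against 111 and 77.5 CPM (0.28, adjusted p = 0.33). Eif4a2, a translation initiation factor gene, was at 97.4 and 95.7 CPM against 136 and 119 CPM (0.40), while its Snora81 was at 9.40 and 4.68 CPM against 180 and 275 CPM (5.00).

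The hosts were of different kinds. Of 15 lncRNA hosts 11 were called, with a median of 3.13, and of 54 protein-coding hosts 6, with a median of 0.23. Over all tested features of these classes, 25.2% of lncRNAs and 1562 of 14167 protein-coding genes were called higher, so that the protein-coding hosts were called about as often as their class. The whole list of 19 known snoRNA host lncRNAs had 17 tested members, 11 called higher and a median of 2.74, and 7 of the 9 with at least 10 counts in each Input library were called. Snhg8 was at 1.06 and 0.754 CPM in the Input and 25.1 and 23.8 CPM in the IP (4.73, adjusted p = 7.1e-05). Dancr was at 0.639 and 0.421 CPM against 11.6 and 9.58 CPM (4.28), above its Snora26 at 3.57. Snhg6 was at 2.42 and 2.59 CPM against 4.97 and 1.68 CPM (0.39, adjusted p = 0.67), with overlapping groups, although its Snord87 was among those with a high ratio.

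The snoRNAs were also set beside other RNAs of their length. Among tested RNAs of 100 to 420 nt, 37 of 37 snoRNAs were called higher (median 4.41), 8 of 10 other small RNAs (median 3.62) and 4 of 8 microRNA precursors (median 2.67). In the same window 1 of 32 protein-coding genes was called higher and 1 lower (median 0.11), and 1 of 17 lncRNAs was called higher (median 0.57). The 6 copies of 5S rRNA, of 121 nt, were not called (median 0.53, the 6 values being nearly identical). They have the same sequence and share reads, so that they count as 1 observation.

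Gm22291, the 5S copy with the most IP counts, was at 1770 and 1175 CPM in the Input and 2250 and 2008 CPM in the IP (0.53, adjusted p = 0.13, and 0.026 with the lysate as a block). Rnu11, the U11 RNA of the minor spliceosome, of 108 nt, was at 14.2 and 9.90 CPM in the Input and 290 and 446 CPM in the IP (4.93, SE 0.28, adjusted p = 4.7e-05). Rnu12, the U12 RNA of the same spliceosome, was at 21.6 and 30.1 CPM against 188 and 870 CPM (4.36, adjusted p = 0.0058). Both minor spliceosomal RNAs were above the Input in both IP libraries, and both calls were lost with the spread of all 8 libraries.

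Rmrp and Rpph1 gave ratios nearer to that of 5S rRNA, while Terc was called higher. Rmrp, the RNA of the RNase MRP particle, was at 6.69 and 4.44 CPM in the Input and 10.8 and 11.9 CPM in the IP (1.03, adjusted p = 0.050, and 0.0082 with the block). Rpph1, the RNA of RNase P, was at 181 and 143 CPM against 444 and 199 CPM (0.99, adjusted p = 0.072, and 1.0e-05 with the block). Terc, the template RNA of telomerase, was at 1.04 and 0.452 CPM against 5.95 and 8.94 CPM (3.29, adjusted p = 0.0082, lost with all 8 libraries). Summed with the Scarna genes as a class, these other small RNAs took 0.0264% and 0.0218% of the Input counts and 0.180% and 0.225% of the IP counts, a ratio of 8.41. The list of 30 stable non-coding RNAs had 10 members in the files, 7 of them tested and 3 called higher (Rnu11, Rnu12 and Terc).

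**Figure D2:**
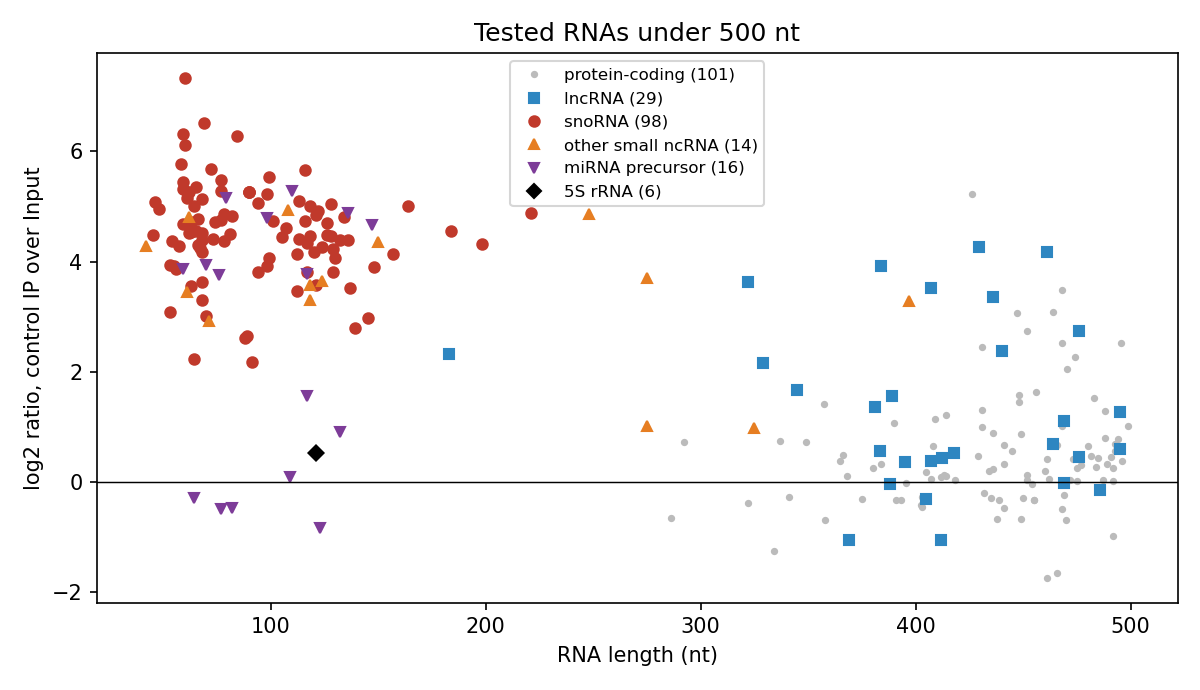
Fitted log2 ratio of control IP over Input against RNA length in nt for tested RNAs under 500 nt, without repeats, with 1 point per feature and 1 colour and shape per class. snoRNAs lie between 2.17 and 7.33, while protein-coding genes and the 5S rRNA copies of similar length lie near 0 (medians of 0.11 and 0.53 at 100 to 420 nt).

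MicroRNA precursors were rarely measured, with 16 of 1184 tested and 8 of these called higher. Mir6516 was at 2.35 and 1.97 CPM in the Input and 82.2 and 86.3 CPM in the IP, the highest ratio among them at 5.27. Mir1291 lies over the snoRNA Snora34, with which it can share reads. The most abundant, Mir6236, was at 527 and 507 CPM in the Input and 203 and 379 CPM in the IP (-0.83, adjusted p = 0.064, and 1.9e-05 with the block), in the opposite direction. The summed counts of the class had a ratio of 0.915.

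Repeats also took a larger share of the IP than of the Input. They took 0.193% (95% exact Clopper-Pearson interval 0.191 to 0.194) and 0.147% (0.146 to 0.149) of the Input counts and 1.96% (1.95 to 1.97) and 1.08% (1.07 to 1.08) of the IP counts. The mean was 1.52% ± 0.625 (SD, n = 2) in the IP and 0.170% ± 0.0321 (SD, n = 2) in the Input, a ratio of 8.93 (exact permutation p = 0.333, the smallest possible). As a share of TPM the ratio was 2.49. Of 347 repeats 268 were tested, 153 called higher and none lower, with a median log2 ratio of 2.16, and of the 192 with at least 10 counts in each Input library 112 were called higher. A repeat feature pools every genomic copy of its consensus, so no position is given.

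LINE1 elements gave the highest ratios among the repeats with many members. Of 45 LINE1 features 42 were tested and 36 called higher, with a median of 3.97 (3.87 in replicate 1 and 3.83 in replicate 2) and a range from 0.49 to 4.99. The summed counts of the class were 14.5 times as high in the IP. Names starting with L1Md, which mark the younger mouse subfamilies, were called in 25 of 25 cases (median 4.15). Of the 8 features named Lx, an older group, 3 were called (median 1.47), while features named L1Lx were called in 4 of 4 cases (median 3.62). Median consensus lengths were 6417 nt for L1Md, 6117 nt for L1Lx and 1466.5 nt for Lx. Age of the subfamily and consensus length were not separated. Subfamilies are close in sequence and can share reads.

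L1MdTf_III was at 26.8 and 19.6 CPM in the Input and 437 and 339 CPM in the IP (4.06, SE 0.22, adjusted p = 4.2e-05). L1MdTf_I was at 14.8 and 13.1 CPM against 299 and 280 CPM (4.38, SE 0.17), and L1MdA_I at 25.6 and 18.7 CPM against 309 and 271 CPM (3.71, SE 0.20). These elements of about the same length and level differed little from each other. The fit of single transcripts, with 3 higher calls in all, was not checked for them. Under every alternative fit of genes that kept repeats, each of the elements passed. With consensus lengths of 6564 to 7398 nt, they had ratios within the range of the snoRNAs.

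The medians of the ERV classes were 2.13 for ERV3 (9 of 15 called), 1.99 for ERV1 (25 of 48) and 1.87 for ERV2 (76 of 148). MERVL, the ERV3 internal sequence known for its transcription at the 2-cell stage, was at 479 and 247 CPM in the Input and 8622 and 4314 CPM in the IP (4.15, SE 0.43, adjusted p = 0.00097, lost with all 8 libraries). It was the most abundant repeat of the IP, and its replicates differed by a like factor in Input and IP. IAPEZI, an intracisternal A particle of the ERV2 class, was at 45.9 and 43.1 CPM against 348 and 229 CPM (2.70, lost with all 8 libraries). RLTR4I, a gammaretrovirus-like ERV1, was at 188 and 204 CPM against 173 and 184 CPM (-0.14, adjusted p = 0.54), with both IP libraries below both Inputs, as in 28.6% of all tested features.

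Major satellite RNA (the consensus named GSAT_MM) had the largest ratio of the named repeats. It was at 8.78 and 5.67 CPM in the Input and 459 and 135 CPM in the IP, a log2 ratio of 5.35 (SE 0.57, adjusted p = 0.0012), and the IP libraries differed 3.40-fold from each other. IMPB_01 was at 0.260 and 0.0709 CPM against 1.47 and 3.37 CPM (3.74, adjusted p = 0.023) and SQR4_MM at 0.458 and 0.582 CPM against 2.26 and 2.91 CPM (2.32, adjusted p = 0.033). Both calls were lost with all 8 libraries and when either Input library was left out, and that of SQR4_MM also by DESeq2. ZP3AR_MM was at 0.261 and 0.205 CPM against 0.815 and 0.473 CPM (1.41, adjusted p = 0.24). The 3 other satellites of the files did not pass the filter.

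A genomic copy of the major satellite is shown because this repeat had the largest ratio among the named repeats and was a target of the qPCR in the study, whose forward primer matches the bases in capitals. It is from the minus strand of GRCm38.p6 at chr9:3001289-3001522 and is 1 copy, not the consensus that was quantified.
Major satellite copy: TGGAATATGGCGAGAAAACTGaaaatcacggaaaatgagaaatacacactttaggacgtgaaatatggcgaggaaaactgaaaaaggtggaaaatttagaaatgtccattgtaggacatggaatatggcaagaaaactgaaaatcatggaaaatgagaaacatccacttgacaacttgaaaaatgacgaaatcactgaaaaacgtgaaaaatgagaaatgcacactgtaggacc

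**Figure D3:**
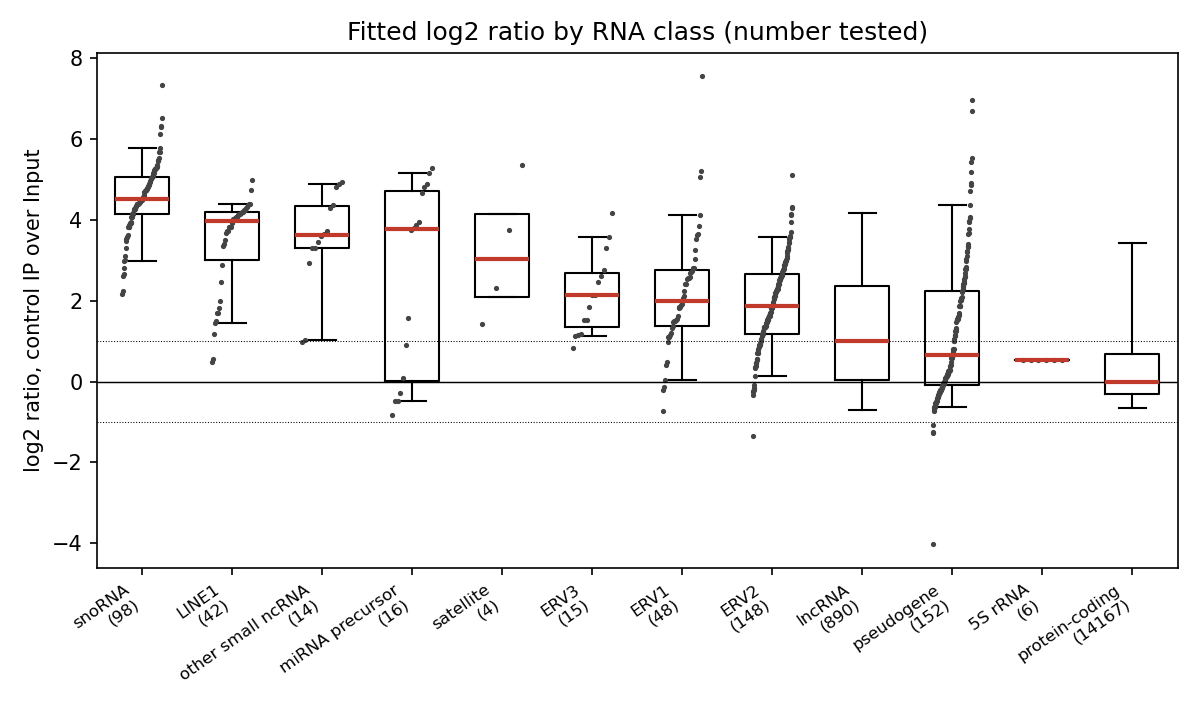
Fitted log2 ratio of control IP over Input by RNA class, with boxes for the quartiles, a line for the median, whiskers at the 5th and 95th percentile and, for classes of up to 300 features, a point per feature. Dotted lines mark a log2 ratio of 1 and -1. The medians run from 4.52 for snoRNAs and 3.97 for LINE1 to 1.01 for lncRNAs and -0.011 for protein-coding genes.

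lncRNAs lay between the repeats and the mRNAs. Of 2184 in the files 890 were tested, 224 called higher and 1 lower, with a median of 1.01, and of the 606 with at least 10 counts in each Input library 102 were called higher (median 0.35). By limma on TPM, over features tested in the main fit, the lncRNA median was -0.14 and that of all features -0.59. Over all features that limma tested these were -0.11 and -0.58. Their summed counts differed by a ratio of 1.14, and the most abundant members did not pass the test. C86187 was at 3910 and 3378 CPM in the Input and 2395 and 3241 CPM in the IP (-0.37, adjusted p = 0.24), and Gm1965 at 1275 and 1034 CPM against 938 and 1042 CPM (-0.22).

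Nuclear lncRNAs were among the members that were higher. Of a list of 13, 11 were tested and 8 called higher, with a median of 2.69, and 6 of the 7 with at least 10 counts in each Input library were called. Malat1, which resides in nuclear speckles, was at 22.9 and 24.7 CPM in the Input and 173 and 133 CPM in the IP (2.68, SE 0.18, adjusted p = 9.4e-05). Kcnq1ot1, an imprinted transcript that acts on its own locus and at 83437 nt the longest RNA called higher with a mean of at least 50 counts, was at 11.4 and 7.56 CPM against 79.9 and 43.4 CPM (2.69, adjusted p = 0.0022). Neat1, the scaffold of paraspeckles, was at 1.18 and 1.55 CPM against 13.9 and 6.53 CPM (2.89), and Xist, the RNA of X inactivation, at 0.425 and 0.329 CPM against 10.8 and 2.0 CPM (4.04). Airn, another imprinted transcript, was at 25.4 and 34.1 CPM against 27.4 and 33.1 CPM (0.03, adjusted p = 0.94), with overlapping groups. The calls of Kcnq1ot1, Neat1 and Xist were lost with all 8 libraries.

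With abundance not held fixed, the medians of lncRNAs from 500 nt upwards were higher in bins of longer transcripts. The median was 0.43 at 500 to 1000 nt (31 of 177 called), 0.73 at 1000 to 2000 nt (64 of 302), 1.39 at 2000 to 4000 nt (93 of 314) and 1.64 at 4000 to 8000 nt (26 of 61). The 28 lncRNAs of 200 to 500 nt did not follow this order, with a median of 0.90 and 5 called. Rarer lncRNAs were also longer. Those under 1 TPM in the FLAG Input had a median length of 2223.5 nt and a median ratio of 2.18. Those of 1 to 3 TPM had 1359.5 nt and 0.58. Length, abundance and the filter were not separated for lncRNAs. Protein-coding genes, again with abundance not held fixed, showed no such order by length. Their medians were 0.32 at 200 to 500 nt (0.47 in replicate 1 and 0.08 in replicate 2) and between -0.027 and 0.036 in the 5 longer bins. Among genes of like abundance (TPM in the Input of the LSM1-FLAG pull-down) below 10 TPM, the medians were lower in longer bins. Under 1 TPM they were 3.04 at 500 to 1000 nt (51 of 95 called), then 2.22, 1.69 and 1.48, and 1.06 at 8000 nt and over (45 of 168 called). From 1 to 10 TPM they were 1.02 at 200 to 500 nt, then 0.33, 0.10 and 0.058, and -0.053 and -0.036 in the longest bins. From 10 to 100 TPM they were 0.12 and -0.038 in the shortest bins and between -0.23 and -0.21 from 1000 nt upwards. At a given TPM a shorter transcript has fewer counts, and only 3763 of the 10128 genes under 1 TPM were tested. Short rare genes could thus enter these bins mostly through the IP. The part of the filter in this order was not tested.

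Across all tested features except repeats, the Spearman correlation of ratio with length was -0.042 (-0.071 in replicate 1 and 0.0087 in replicate 2). It was 0.027 without IP replicate 1 and -0.11 without Input replicate 1. Features share libraries and are not independent, and these values are descriptions. Under 200 nt, where snoRNAs are most of the features, 113 of 129 were called higher with a median of 4.39, and at 8000 nt and over 63 of 614 with a median of 0.01. GC content showed a correlation of -0.014 (-0.017 and -0.023 in the replicates). Within 3 strata of length, from short to long, it was 0.035, 0.013 and -0.13. Among protein-coding genes it was 0.086 under 1 TPM in the FLAG Input, 0.0093 at 1 to 3 TPM, -0.080 at 3 to 10 TPM, -0.19 at 10 to 30 TPM and -0.22 at 30 to 100 TPM.

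Ratios of protein-coding genes ran with abundance. Abundance was taken from the TPM of the FLAG Input, which shares no library with this comparison. The correlation of ratio with abundance over all tested features was -0.62 (-0.54 and -0.55 in the replicates). Of the protein-coding genes under 1 TPM, 3763 of 10128 were tested and 1279 called higher (median 1.69). From 1 to 3 TPM the median was 0.21, and it was lower in each following bin, down to -0.36 at 300 TPM and over.

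Sums over all genes do not depend on the filter, which a rare gene can pass through the IP alone. Protein-coding genes under 1 TPM, tested or not, took 0.377% and 0.351% of the Input and 1.28% and 0.863% of the IP, a ratio of 2.94 (3.38 in replicate 1 and 2.46 in replicate 2). From 1 to 3 TPM the ratio of sums was 1.37, and from 3 to 10 TPM 1.10. It was between 0.934 and 0.989 in the 4 bins above. The share of rare mRNAs was thus larger in both IP libraries than in both Inputs. Of the 2079 genes under 1 TPM with at least 10 counts in each Input library, 333 were called higher and 5 lower (median 0.79).

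**Figure D4:**
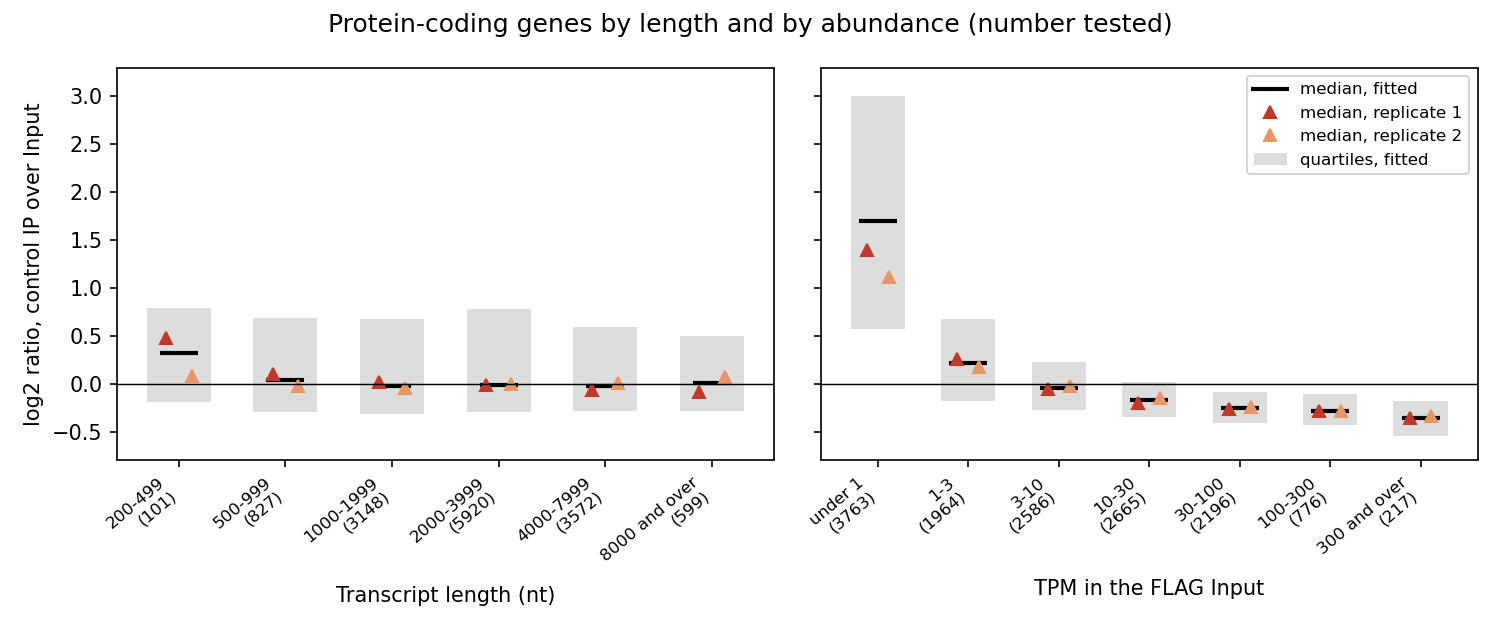
Log2 ratio of control IP over Input for protein-coding genes in bins of transcript length in nt (left) and of TPM in the FLAG Input (right), with grey bars for the quartiles, black lines for the fitted median and triangles for the median of each replicate. The medians stay near 0 from 500 nt upwards and run from 1.69 under 1 TPM to -0.36 at 300 TPM and over.

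The protein-coding genes with the highest ratios were nearly absent from the Input. Mt2, a metallothionein, was at 0.947 and 0.780 CPM in the Input and 101 and 24.1 CPM in the IP (6.15, SE 0.70, adjusted p = 0.0018). Acta1, the skeletal muscle actin, was at 0.0654 and 0.0821 CPM against 10.5 and 0.737 CPM (6.14, adjusted p = 0.021), with IP libraries far apart. Rpp25, a protein subunit of RNase P and RNase MRP, was at 0.196 and 0 CPM against 9.45 and 4.94 CPM (6.0). Krt18, a keratin of simple epithelia, was at 0.0653 and 0.164 CPM against 9.61 and 2.31 CPM (5.66). NM_198423, a transcript matched to no gene, had no counts in the Input and 5.66 and 4.08 CPM in the IP, at least 89.3-fold higher against a floor of 3 counts over both Input libraries. The calls of Acta1 and NM_198423 were lost with all 8 libraries.

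Of the 217 protein-coding genes at 300 TPM and over, 3 were called higher and 6 lower. Spin1, a chromatin reader expressed in oocytes, was at 4346 and 3961 CPM in the Input and 11572 and 19821 CPM in the IP (1.92, SE 0.28, adjusted p = 0.0055, lost with all 8 libraries). Ccdc82, the most abundant mRNA of the IP, was at 19718 and 20043 CPM against 22878 and 22806 CPM (0.20, adjusted p = 0.52). The values of Ccdc82 do not overlap between the groups, but the difference did not pass the test.

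Of the 38 features called lower, 30 were protein-coding genes, and 2 of the 27 genes on the oocyte and zygote list were among them. These 2, Omt2b and Omt2a, oocyte-specific paralogs that can share reads, were at 384 and 250 CPM against 107 and 117 CPM (-1.5, adjusted p = 0.0049) and at 213 and 127 CPM against 65.2 and 69.1 CPM (-1.34, adjusted p = 0.012). Ezhip, an inhibitor of the Polycomb methyltransferase, was at 1626 and 1590 CPM against 605 and 712 CPM (-1.29, adjusted p = 0.0035). Numa1, a spindle pole protein, was at 229 and 298 CPM against 101 and 105 CPM (-1.35, adjusted p = 0.0027). In all 4 the groups were clearly apart.

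Romo1, a mitochondrial membrane protein, was at 15.7 and 11.5 CPM in the Input and 4.72 and 4.0 CPM in the IP (-1.65, adjusted p = 0.012). Oaz1, antizyme of ornithine decarboxylase, was at 119 and 85 CPM against 49.8 and 41.1 CPM (-1.17). Gm20594, of 334 nt and the shortest of the lower features with a mean of at least 50 counts, was at 3976 and 2967 CPM against 1866 and 1070 CPM (-1.24, adjusted p = 0.024). NM_027384, matched to no gene, was at 1.31 and 3.15 CPM in the Input and without counts in the IP, at least 23.2-fold lower with 3 counts over both IP libraries as the floor. Of these named lower features, all except Romo1 lost the call with the spread of all 8 libraries, and Romo1 lost it without Input replicate 1.

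Lists of maternal mRNAs had medians below 0, near those of all protein-coding genes of their abundance (-0.28 at 100 to 300 TPM and -0.36 at 300 TPM and over). Of 27 oocyte and zygote genes, 8 were lower and 1 higher by adjusted p (background 3.12% and 14.1%), with a median of -0.38. Of 17 genes of maternal mRNA storage and translation, 4 were lower and none higher (median -0.30), among them Eif4e1b at 951 and 1014 CPM against 601 and 609 CPM (-0.70, adjusted p = 0.022). Of 8 genes of the subcortical maternal complex 1 was lower, Nlrp5, at 1279 and 1347 CPM against 820 and 881 CPM (-0.63, adjusted p = 0.032). Of 18 secreted and zona pellucida genes 2 were lower, Oosp1 and Oosp3, and the median was -0.24. Of 38 spliceosome genes 5 were lower and 1 higher (median -0.26). The higher one was Cdc5l, at 59.6 and 28.7 CPM against 399 and 275 CPM (2.93), and Snrpe, an Sm protein, was at 44.5 and 37.4 CPM against 21.9 and 19.8 CPM (-0.97). None of the genes named for these lists kept an adjusted p under 0.05 with the spread of all 8 libraries.

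Other lists had medians above 0. Of 79 cytosolic ribosomal protein genes, 25 were higher and none lower by adjusted p, with a median of 0.44 (0.64 in replicate 1 and 0.27 in replicate 2). By limma on TPM that median was -0.28, where that of all features tested in the main fit was -0.59. Rpl18 was at 3.46 and 3.41 CPM in the Input and 47.8 and 19.9 CPM in the IP (3.29), and Rps19 at 0.947 and 0.575 CPM against 15.4 and 8.04 CPM (3.91). More abundant members did not pass, such as Rps16 at 32.0 and 25.5 CPM against 44.4 and 22.3 CPM (0.21). Of 74 respiratory chain genes 3 were higher (median 0.16), of 56 replication-dependent histone genes 10 (median 0.22), and of 361 zinc finger genes 63 were higher and 3 lower (median 0.23). The shares of histone and zinc finger genes that were higher lie near the 14.1% over all tested features, and that of respiratory chain genes lies below it.

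Of 24 genes known for transcription at the 2-cell stage, as MERVL is, 16 were tested and 11 called higher, with a median of 2.99. Of the 10 with at least 10 counts in each Input library, 6 were called higher (913 of 13539 over all tested features), with a median of 1.91. The list summed to 75.6 and 64.3 CPM in the Input and 356 and 274 CPM in the IP. Zfp352 was at 4.34 and 4.02 CPM in the Input and 67.5 and 42.8 CPM in the IP (3.71, SE 0.26, adjusted p = 0.00013). Usp17lc was at 9.70 and 7.71 CPM against 74.1 and 84.4 CPM (3.18) and its near copy Usp17ld at 2.99 and 1.90 CPM against 30.2 and 28.6 CPM (3.57), and the 2 can share reads. All 3 passed under every alternative fit of genes, and the fit of single transcripts was not checked for them.

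Of 23 genes of decapping and P-bodies, 1 was higher and 1 lower by adjusted p (background 14.1% and 3.12%), with a median of -0.02. Lsm4 was at 2.74 and 2.75 CPM against 7.25 and 6.26 CPM (1.29, adjusted p = 0.041) and Lsm2 at 19.7 and 16.0 CPM against 9.61 and 10.6 CPM (-0.82, adjusted p = 0.043). Both encode subunits of the LSM ring. Neither call held with all 8 libraries or without either Input library. That of Lsm4 was also lost by DESeq2 and by limma on TPM, and that of Lsm2 on library totals. Of 30 cytoskeleton genes 4 were higher and 1 lower (median -0.20), near the 14.1% and 3.12% over all tested features. Actb was at 79.6 and 93.4 CPM against 67.6 and 81.5 CPM (-0.21, adjusted p = 0.39) and Hprt at 41.6 and 42.3 CPM against 28.4 and 33.6 CPM (-0.43, adjusted p = 0.11). The histone H3.3 gene H3f3a was at 327 and 320 CPM against 212 and 212 CPM (-0.61, adjusted p = 0.025, lost with all 8 libraries and without either Input library), and H3f3b at 503 and 452 CPM against 375 and 278 CPM (-0.55, adjusted p = 0.072, and 0.010 with the block).

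Markers of cells other than the zygote were few among the tested features. Of 20 cumulus and granulosa markers 13 were tested, and of the 10 with at least 10 counts in each Input library none was called. Over all tested features with such counts, 913 of 13539 were called higher. Foxl2, which passed the filter through the IP, was at 0.0980 and 0 CPM against 3.26 and 0.999 CPM (5.16, adjusted p = 0.023). Of 20 sperm markers 6 were tested, and of the 5 with at least 10 counts in each Input library none was called. Tnp1, a transition protein that passed the filter through the IP, was at 0.131 and 0 CPM against 5.13 and 0.683 CPM (5.23), and Odf2, also known from centrosomes of other cells, held most of the list's counts and was lower by adjusted p, at 342 and 400 CPM against 189 and 223 CPM (-0.85). Of 10 blood markers 2 were tested and both called higher, Lyz2, which passed the filter through the IP, at 0.0327 and 0 CPM against 2.79 and 1.11 CPM and Alas2 at 0.849 and 0.780 CPM against 3.18 and 3.0 CPM. The calls of these 5 genes were lost with the spread of all 8 libraries and without Input replicate 2. Alas2 also lost its call by DESeq2, by limma on TPM and without Input replicate 1. The part of such cells in the results above was not tested.

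The IP libraries differed from each other in certain abundant RNAs. Ipo8, an importin gene, was at 776 and 805 CPM in the Input and 847 and 6118 CPM in the IP, where replicate 2 was 7.22 times replicate 1 (log2 ratio 2.14, adjusted p = 0.070, and 1.4e-09 with the block). Jak1, a cytokine receptor kinase, was at 286 and 309 CPM against 274 and 1827 CPM. Myo5b, an unconventional myosin, was at 825 and 909 CPM against 723 and 3524 CPM. For these 3 mRNAs IP replicate 1 stayed close to the Input and replicate 2 alone was high. Vaultrc5, a vault RNA, was at 152 and 72.9 CPM against 67.9 and 645 CPM (1.67, adjusted p = 0.19, and 6.9e-05 with the block), and Snord22 at 18.3 and 10.7 CPM against 104 and 550 CPM. Tmem170, at 7.70 and 7.02 CPM against 201 and 36.6 CPM, was among those high in replicate 1. These genes were chosen after their values were seen.

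The LSM1-FLAG pull-down, taken with the same beads from zygotes given Lsm1_3XFlag mRNA, is set beside the control to show where it differs. Its IP over Input comparison called 3972 of 18973 features higher (20.9%) and 969 lower (5.11%). These calls came from a fit of all 8 RIP-seq libraries, in which the control comparison called 403 higher and 1 lower. The 2119 control calls came from the fit of the control libraries alone, which tested 15740 features. The 2 ratios are formed from different libraries, but the fit behind the FLAG calls took its filter, scaling and spread from the control libraries too. Control and FLAG calls are thus not independent lists. Of the 2119 features called higher in the control, 93.3% had a log2 ratio above 1 in FLAG replicate 1 (36.4% of all tested features) and 88.1% in FLAG replicate 2 (23.9%). These backgrounds are not matched for abundance. Of the 2119, 71.7% were under 1 TPM in the FLAG Input. All tested features under 1 TPM had median log2 ratios of 3.14 and 1.39 in FLAG replicates 1 and 2. The number called higher in both was 1684, which is 79.5% of the control calls and 42.4% of the FLAG calls. These percentages set lists from different fits and different sets of tested features side by side.

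The ratio of ratios, FLAG IP over FLAG Input against control IP over control Input, was tested over the 8 libraries. No feature of 18973 passed in either direction by edgeR, with 996 at an unadjusted p under 0.05, and by DESeq2 0 were higher and 1 lower, with 1045 at an unadjusted p under 0.05. Without FLAG IP replicate 2 the counts were 1710 higher and 4234 lower, and without FLAG IP replicate 1, 1 and 0. With the lysate as a block they were 4 and 6. Without control IP replicate 1 or 2 no feature passed.

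By class the FLAG replicates lay further apart than the control replicates. The median log2 ratio of snoRNAs was 1.15 and 3.35 in FLAG replicates 1 and 2, against 3.68 and 4.52 in the control. That of LINE1 was 5.52 and 3.71, against 3.87 and 3.83, and that of lncRNAs 2.22 and 0.68, against 0.84 and 0.77. Snord and Snora genes had medians of 3.48 and 3.96 in control replicate 1 and 0.48 and 4.37 in FLAG replicate 1, and of 4.19 and 4.77 against 3.26 and 3.53 in replicate 2. Ipo8 was at 141 and 3465 CPM in the FLAG IP libraries, Jak1 at 70.7 and 845 CPM and Myo5b at 148 and 1854 CPM, again higher in replicate 2. Over 15740 features the difference between replicates 1 and 2 of the control IP correlated with that of the FLAG IP at 0.244, a description only.

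**Figure D5:**
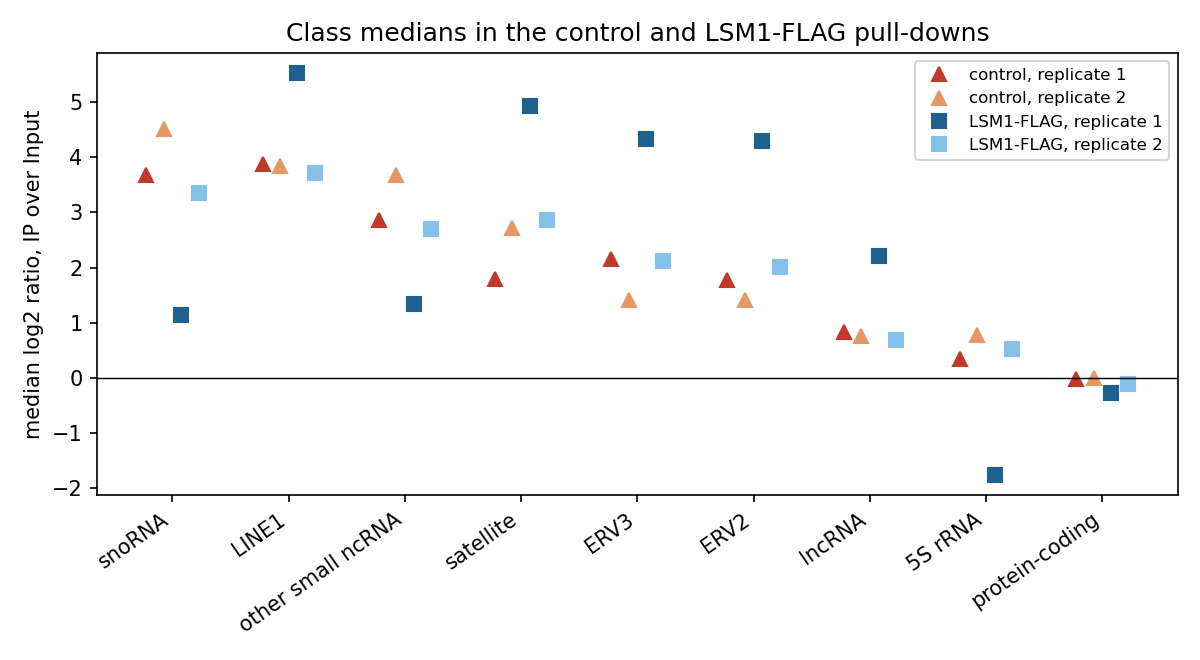
Median log2 ratio of IP over Input by RNA class, with triangles for the 2 control replicates and squares for the 2 LSM1-FLAG replicates. The control medians of LINE1 (3.87 and 3.83) lie close together and those of snoRNAs are 3.68 and 4.52. The LSM1-FLAG medians are 1.15 and 3.35 for snoRNAs and 5.52 and 3.71 for LINE1.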

How the data were processed

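Total RNA of the control Input and the control IP was sequenced with the SMARTer Stranded Total RNA-Seq Kit v2. The authors trimmed the reads (the submitters' processing notes name Trimmomatic, the paper Cutadapt) and made the deposited estimated counts and TPM values with Salmon against 37713 features, the RefSeq transcripts of mm10 plus repeats from Repbase. Of 37366 transcripts, 37067 were matched to a gene of GRCm38.p6, and the other 299 stayed single.

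For each gene its transcripts' estimated counts were added up and rounded. IP and Input were compared in R 4.3.3 with edgeR 4.0.16 (quasi-likelihood fit) on the 4 control libraries with TMM factors and filterByExpr, with Benjamini-Hochberg adjustment over all tested features. CPM are scaled to TMM-adjusted totals, except the Lsm1 range set beside the FLAG Input, which uses library totals. Lengths and GC content are means over transcripts weighted by their TPM in the FLAG Input, or unweighted for genes without TPM there. Replicate ratios used a pseudocount of 0.25 CPM. DESeq2 1.42.0, limma 3.58.1 on log2(TPM + 1), other scalings and filters and fits without a library were alternatives. The p-values of edgeR set the difference of IP and Input against the spread between these samples, estimated with information shared across features. In simulated data on 15740 features, only genes with a mean of at least 50 counts were changed, equally often up and down. A find was counted at an adjusted p under 0.05, without the log2 threshold of the calls. By this count 52 of 100 genes changed 2-fold and 87 of 100 changed 4-fold were found, and 20 of the 159 finds were false. These rates do not cover changes of rare RNAs or changes mostly in 1 direction.

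The methods say that a part of each lysate was kept as Input, so IP and Input of the same number were taken as paired. The replicate differences of IP and Input correlated at 0.129 over 15740 features.

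Named features were up to 8 per direction with the largest ratio, the most abundant of each class, up to 2 per gene list, the satellites, reference genes, and the longest and shortest called RNAs. Genes with an M2-like peptide were not analysed here. The members and lists were chosen with earlier results of these data known, and further features were named after their values were seen (the printed snoRNAs, their hosts, other small RNAs, further repeats and lncRNAs, genes that differed between IP libraries). A copy of the major satellite was located by the study's primer sequence, and copies were found by exact match.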

Additional observations from a re-analysis of the deposited data

Results flagged for a closer look

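In 3 named features both control replicates moved one way and both LSM1-FLAG replicates the opposite way. RLTR4I had a log2 ratio of -0.14 in the control, Ccdc82 of 0.20 and ZP3AR_MM of 1.41. None of the 3 passed the test in the control. The ratio of ratios, tested by edgeR over 8 libraries, gave adjusted p-values of 0.81, 0.93 and 0.83, so that a difference between the pull-downs was not shown for any of them.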

How the results depend on the processing

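Calls higher and lower were 717 and 1349 by limma on TPM, 403 and 1 with all 8 RIP-seq libraries, 3 and 0 by single transcripts, and 574 to 3907 and 32 to 614 when 1 library was left out. Lower calls were 20 on library totals, 66 with no filter and 72 with the replicate block. The length correlation was -0.14 by limma and -0.11 to 0.027 without a library. That of GC was 0.038 by DESeq2, -0.058 by limma, -0.019 with the block and -0.026 to 0.033 without a library. That of abundance was -0.52 by DESeq2, -0.59 with the block, -0.67 to -0.55 without a library, and -0.64 and -0.60 with TPM of the control Input and of the Ctrl RNA-seq. The LINE1 median was 3.76 by DESeq2, 3.94 with its size factors in edgeR, 4.10 on library totals, 2.66 by limma and 3.64 to 4.22 without a library. The lncRNA median was 1.33 by DESeq2, 1.12 on library totals, -0.11 by limma, 0.93 with the block and 0.90 to 1.45 without a library. The protein-coding median was 0.036 by DESeq2, -0.047 with its size factors, 0.10 on library totals, -0.61 by limma, -0.029 with the block and -0.012 to 0.029 without a library. Scaling by library totals moved the median of all features to 0.15. The repeat share ratio was 2.49 in TPM and 6.33 to 11.5 without a library. The ratio of ratios gave 0 and 1 by DESeq2, 4 and 6 with the block, 17 and 4 with no filter, and 0 to 1710 and 0 to 4234 without a library.

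Among named features, 88 were past an adjusted p of 0.05 and 34 of these under every alternative that tested genes. With all 8 libraries 52 of the 88 were no longer past it, and fewer were lost when either Input replicate was left out. Log2 ratios changed sign on library totals for Gm6367 (0.063), Suv39h2 (0.036) and Daxx (0.073), and by limma on TPM for Ccdc82 (-0.39), Gm22291 (-0.025), Lsm1 (-0.22), Atrx (-0.085), Airn (-0.53), Rps16 (-0.47) and Rpl13a (-0.33). Airn was at -0.042 by DESeq2, -0.0083 with its size factors, -0.015 with no filter and -0.014 with all 8 libraries, and 4930451G09Rik at -0.26 with the replicate block. Leaving out 1 library at a time gave -0.22 to 0.074 for Gm6367, -0.18 to 0.028 for Daxx, -0.21 to 0.0036 for Suv39h2, -0.38 to 0.60 for Rps16, -0.0072 to 0.50 for Rpl13a, -0.75 to 2.50 for Vaultrc5, -0.28 to 2.01 for Myo5b, -0.14 to 2.60 for Jak1, -0.21 to 0.23 for Airn and -6.95 to 1.53 for 4930451G09Rik. The causes were not tested. The block also passed Atrx (adjusted p = 0.039), Jak1 (4.6e-08) and Myo5b (0.00045), and the lysate pairing changed no other call of a named feature besides those given with their values. A length offset, and leaving repeats out before scaling, moved no count of calls by over 1.5 times. With 2 libraries a group, no exact test over samples can reach 0.05.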

Other observations

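Receptor genes of sensory neurons were mostly without counts. Of 1112 olfactory receptor genes 22 were tested, with 3 called higher (near the 13.5% over all features) and 1 lower in the IP and a median log2 ratio of -0.15, and 825 were at 0 in all 4 libraries. Of 357 vomeronasal receptor genes 19 were tested and 3 called higher (median 0.63), also near the share over all features. With at least 10 counts in each Input library, 0 of 18 olfactory and 1 of 13 vomeronasal receptor genes were called higher, against 913 of 13539 tested features. Pseudogenes gave 40 of 152 higher and 1 lower (median 0.66). Among SINEs, B2, a repeat derived from a tRNA, was at 5.60 and 4.26 CPM in the Input and 41.0 and 25.7 CPM in the IP (2.75, adjusted p = 0.00098). ERV internal sequences were called in 23 of 33 ERV2 cases and 6 of 9 ERV1 cases, and features with LTR or other names in 53 of 115 and 19 of 39.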
